A study of Danio rerio with 18 samples.

Results

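The set described here holds 10 genes of stroma and mesenchyme. They are the platelet-derived growth factor (PDGF) receptors pdgfra and pdgfrb, the matrix proteoglycans lum and dcn, the matrix glycoproteins sparc, fn1a and fn1b, the secreted factor angptl2a, and the secreted enzymes adamts15b and sulf2a. Each was found in the probe annotation through its Entrez identifier, or for pdgfra through its symbol. All 10 of 10 were measured, among 19247 named genes in all. pdgfra had 2 probe rows, of which the one with the higher mean over all arrays was used, and every other member had 1. The members were selected on measured values: differences of lum and sparc between kdrl+ and negative cells, of pdgfra between Runx+ and negative cells and of fn1b between Runx+ and kdrl+ cells, all in DMSO, were known when the list was drawn up. Differences between DMSO sorts are therefore given as a description with no test.

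AB strain zebrafish embryos with the transgenes Runx1+23:GFP and kdrl:DsRed2 were the source of all 18 arrays. Embryo pools were kept in 75 µM Lycorine with 1% DMSO, or in 1% DMSO alone, from 2 to 3 days post fertilization (dpf), so the vehicle is shared by all groups. Lycorine is a plant alkaloid known to inhibit protein synthesis. At 3 dpf the pools were dissociated and sorted into Runx+ cells (GFP driven by an enhancer of runx1, a reporter of blood stem and progenitor cells), kdrl+ cells (DsRed2 driven by the promoter of the endothelial gene kdrl) and negative cells with neither colour, and their RNA was amplified before hybridization. Each of the 6 groups, Lycorine Runx+, Lycorine kdrl+, Lycorine negative, DMSO Runx+, DMSO kdrl+ and DMSO negative, had 3 arrays that the labels call biological replicates. The labels do not say that the 3 came from separate pools, so p-values measure the spread between these arrays, which may in part be technical.

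Stroma and mesenchyme are the connective cells between epithelia, vessels and muscle, among them fibroblasts, cartilage precursors and the mural cells that wrap vessels. They secrete collagens, proteoglycans and glycoproteins, and they carry PDGF receptors that bind ligands made in part by neighbouring endothelium and epithelium. Lumican and decorin, made by lum and dcn, bind collagen fibrils, and cells attach to fibronectin through integrins. Blood stem cells of the embryo lie next to such cells and next to endothelium.

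All values are the authors' log2 intensities, and a difference of 1 on this scale is a factor of 2. Replicate arrays correlated across genes at 0.961 to 0.984 in Lycorine groups and at 0.872 to 0.962 in DMSO groups, so DMSO values carry more spread. The tests pooled the variance of a gene over all groups, so adjusted p-values between DMSO sorts may be too low. In fits on only the groups compared, fewer genes were called between kdrl+ cells and the other sorts in DMSO. All 10 endothelial markers tested were higher in kdrl+ cells, in either treatment, with a median difference from negative cells of 4.60 with Lycorine and 3.66 in DMSO (limma). Of 7 markers of blood stem and progenitor cells, 0 passed the threshold in Runx+ against negative cells, in either treatment, by limma's adjusted p, and 1 with Lycorine and 2 in DMSO had an unadjusted p under 0.05. In that comparison only 2 genes with Lycorine (0.0104%) and 1 in DMSO (0.0052%) passed among all genes. itga2b, an integrin gene of progenitors and thrombocytes, differed by 1.09 ± 0.39 with Lycorine (adjusted p = 1) and by 2.18 ± 0.39 in DMSO (adjusted p = 0.0774, limma), with no overlap of arrays in either treatment. myb, a regulator of blood progenitors, had a mean of 7.81 in Runx+, 9.17 in kdrl+ and 7.13 in negative cells with Lycorine. Of the other listed markers, gata2b (-0.31), lmo2 (-0.16) and tal1 (-0.47) were lower in Runx+ than in negative cells with Lycorine. runx1 (0.04) and gfi1aa (0.10) were slightly higher. runx1 averaged 4.80 in Runx+, 5.54 in kdrl+ and 4.76 in negative cells with Lycorine. In such sorted bulk samples, fewer cells of a type and less RNA per cell cannot be told apart.

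Between sorts, 7 of the 10 members were called lower in kdrl+ than in negative cells of Lycorine-treated embryos. The DMSO contrasts did not use these arrays, but they had also been looked at when the list was drawn up. Calls, counts and medians of members between sorts with Lycorine therefore describe a list chosen with such values known. They are no independent test of it. sulf2a, lum, angptl2a, fn1b, adamts15b, dcn and sparc fell by 0.96 to 2.07 on the log2 scale (limma, Benjamini-Hochberg adjusted over all genes, threshold 0.05). No member was called higher. The background for that count was 6.39% of all genes called lower and 6.56% called higher. The members' median difference was -1.24, against -0.03 for all genes. pdgfra, pdgfrb and fn1a did not pass the test. Arrays of the groups did not overlap for 8 of 10 members, against 38.9% of all genes. These were the 7 called lower and fn1a, whose kdrl+ arrays all lay above its negative arrays. In DMSO, where the values are a description, kdrl+ minus negative differences ran from -2.52 (sulf2a) to 0.66 (fn1a), and 7 members did not overlap against 20.6% of all genes.

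**Figure D1:**
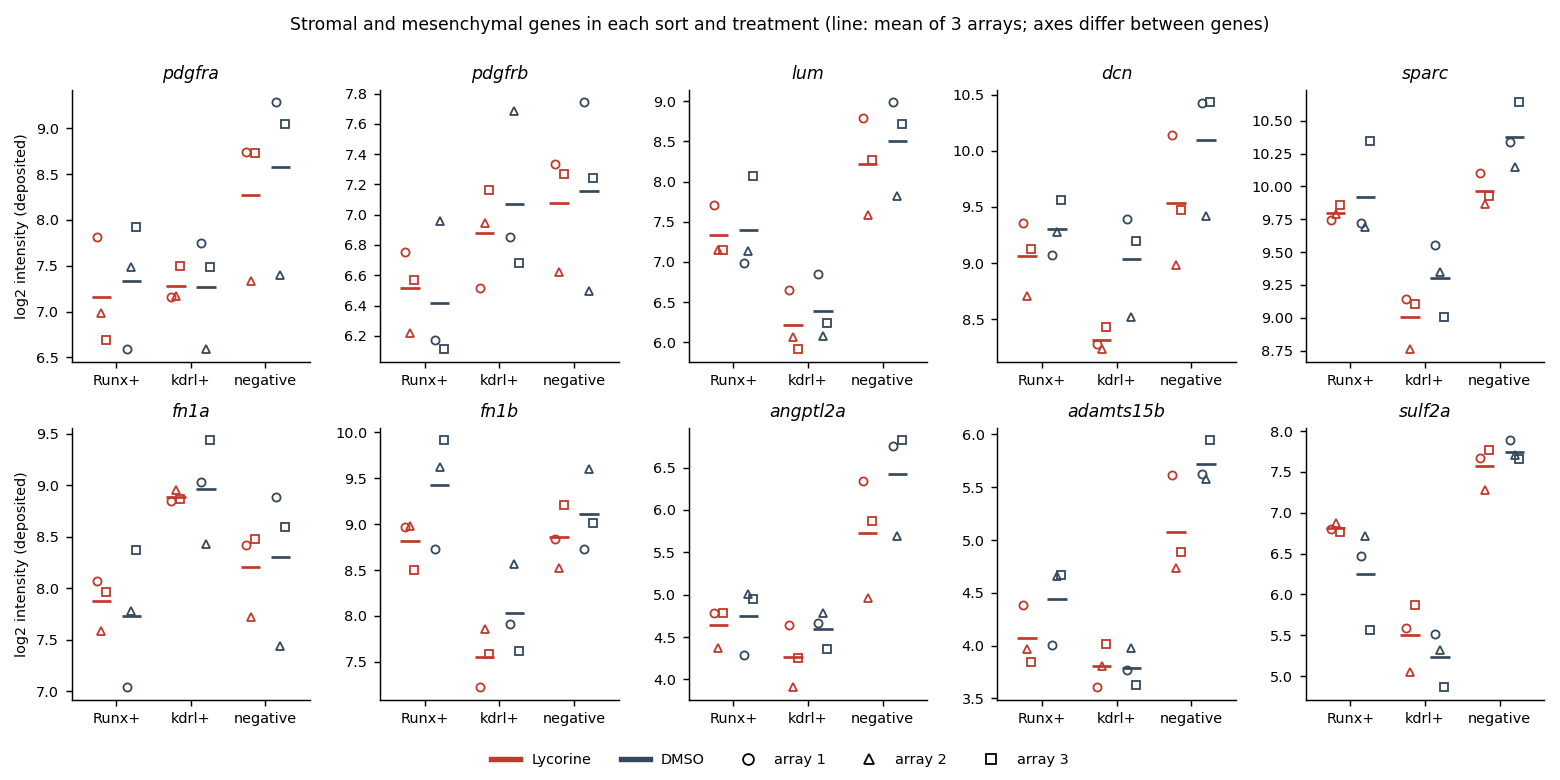
Deposited log2 intensity of each member (vertical axes, one scale per gene) on each array, by sort, with Lycorine in red to the left of DMSO in dark blue; marker shapes are the array numbers 1 to 3 and lines are means of 3 arrays. The 6 members lum, dcn, sparc, angptl2a, adamts15b and sulf2a lie lowest in kdrl+ and highest in negative cells in both treatments, fn1a lies highest in kdrl+ cells, and in negative cells the triangles (array 2) are mostly the lowest points.

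The PDGF receptors come first, because they receive signals from neighbouring cells. pdgfra encodes PDGF receptor alpha, a receptor tyrosine kinase carried by many mesenchymal cells. With Lycorine it had 7.81, 6.98 and 6.69 in Runx+ cells, 7.16, 7.17 and 7.50 in kdrl+ cells, and 8.74, 7.33 and 8.74 in negative cells. In DMSO it had 6.59, 7.49 and 7.92 in Runx+ cells, 7.75, 6.59 and 7.48 in kdrl+ cells, and 9.28, 7.40 and 9.05 in negative cells. In either treatment 2 negative arrays stood above every Runx+ and kdrl+ array and the negative array numbered 2 lay within their range.

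The pdgfra difference between kdrl+ and negative cells with Lycorine was -0.99 ± 0.50 (SE; adjusted p = 0.242, limma). It passed the test with array weights over all arrays, at -1.22 (adjusted p = 0.00636), and with both negative arrays numbered 2 left out, a choice made after seeing the data, at -1.46 (adjusted p = 0.0293). Array weights also raised the count of calls over all genes, as given in the closing section. In DMSO the difference was -1.30 ± 0.50. The other pdgfra row followed the one used with r = 0.892 over 18 arrays and averaged 7.22 ± 0.21 in kdrl+ and 8.30 ± 0.71 in negative cells with Lycorine (SD, n = 3 each).

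pdgfrb encodes PDGF receptor beta, which mural cells carry. With Lycorine it had 6.75, 6.22 and 6.57 in Runx+ cells, 6.52, 6.95 and 7.17 in kdrl+ cells, and 7.34, 6.62 and 7.27 in negative cells. In DMSO it had 6.17, 6.96 and 6.11 in Runx+ cells, 6.85, 7.69 and 6.68 in kdrl+ cells, and 7.74, 6.49 and 7.24 in negative cells. All 3 sorts overlapped in both treatments. The kdrl+ minus negative difference was -0.20 ± 0.34 with Lycorine (adjusted p = 0.857, limma; 95% interval -0.92 to 0.52) and -0.09 ± 0.34 in DMSO. The DMSO value was -0.72 without the 3 DMSO arrays numbered 2.

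Of the 7 genes listed as PDGF ligands with the receptor-like pdgfrl, 4 were higher and 2 lower in kdrl+ than in negative cells with Lycorine (limma, background 6.56% higher and 6.39% lower). pdgfbb, a ligand of the B type that in mice recruits mural cells to vessels, averaged 8.78 in Lycorine kdrl+ and 5.49 in Lycorine negative cells, a rise of 3.29 ± 0.32 (adjusted p = 1.74e-06), and pdgfd rose by 1.71 ± 0.20 (adjusted p = 2.13e-05). In DMSO 2 of the 7 were higher and 0 lower (background 4.49% higher and 6.02% lower). pdgfbb averaged 8.10 in DMSO kdrl+ and 5.76 in DMSO negative cells, a rise of 2.34 ± 0.32 (adjusted p = 0.000153), and pdgfd rose by 1.23 ± 0.20 (adjusted p = 0.000897). The 4 calls of pdgfbb and pdgfd held when each of the 6 arrays compared was left out in turn.

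The other calls of this list with Lycorine, named after their values were seen, were a rise of pdgfba by 2.12 ± 0.38 (adjusted p = 0.00133) and of pdgfaa by 0.81 ± 0.24 (adjusted p = 0.0338), and lower values of pdgfc (-1.11 ± 0.25, adjusted p = 0.00638) and pdgfrl (-1.94 ± 0.59, adjusted p = 0.0374), all by limma. The calls of pdgfaa and pdgfrl were lost without Lycorine kdrl+ array 2 (adjusted p = 0.166 and 0.189) and without several other single arrays.

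**Figure D2:**
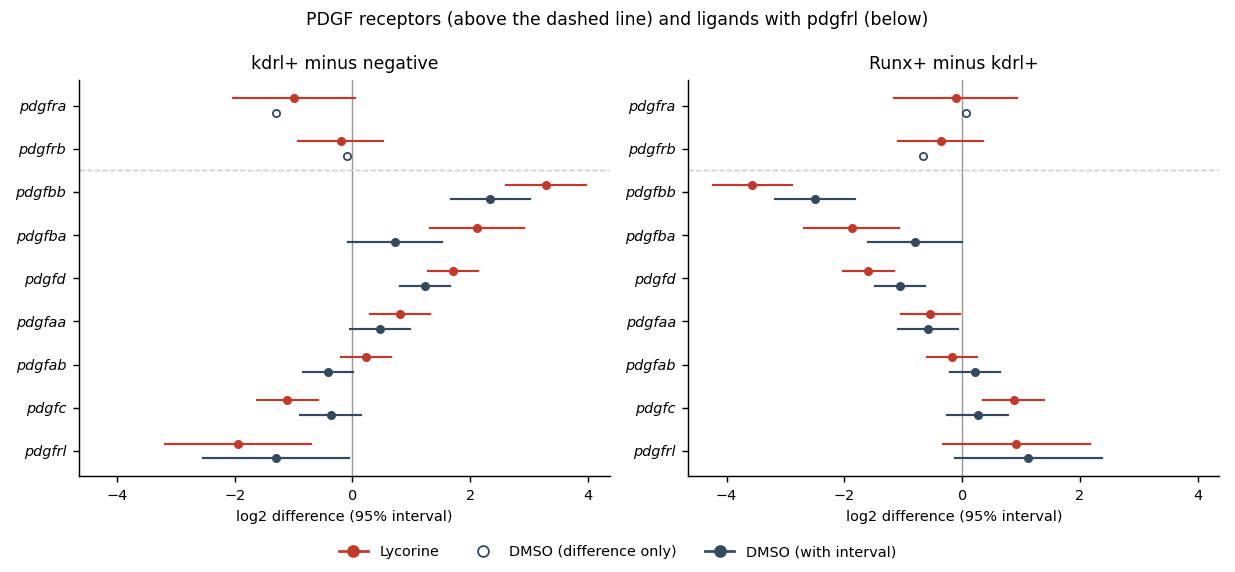
Log2 differences (horizontal axes) of the PDGF receptors and of the PDGF ligands with pdgfrl, kdrl+ minus negative at left and Runx+ minus kdrl+ at right, Lycorine in red above DMSO in dark blue; bars are 95% intervals from limma, not drawn for the receptors in DMSO, where the values are a description. pdgfbb lies at 3.29 with Lycorine and 2.34 in DMSO at left, and at -3.57 and -2.50 at right.

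Among the matrix genes of the set, lum had the largest difference between kdrl+ and negative cells, in both treatments. Lumican is a small leucine-rich proteoglycan of collagen-rich connective tissue and cornea. With Lycorine lum had 7.70, 7.15 and 7.15 in Runx+ cells, 6.65, 6.07 and 5.91 in kdrl+ cells, and 8.79, 7.58 and 8.27 in negative cells. Every kdrl+ array was below every Runx+ and negative array. lum fell in kdrl+ against negative cells by 2.00 ± 0.37, a factor of 4.01 (adjusted p = 0.00167, limma). In DMSO it had 6.99, 7.14 and 8.07 in Runx+ cells, 6.85, 6.07 and 6.25 in kdrl+ cells, and 8.98, 7.82 and 8.72 in negative cells, a kdrl+ minus negative difference of -2.12 ± 0.37.

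dcn, the decorin gene, had 9.36, 8.71 and 9.12 in Runx+ cells, 8.28, 8.23 and 8.43 in kdrl+ cells, and 10.14, 8.98 and 9.47 in negative cells with Lycorine. kdrl+ arrays again lay below all others. It fell in kdrl+ against negative cells by 1.22 ± 0.32 (adjusted p = 0.0179, limma). That call was lost without any one of Lycorine negative array 1 (adjusted p = 0.11), Lycorine negative array 3 (0.0501), Lycorine kdrl+ array 1 (0.0543) or Lycorine kdrl+ array 2 (0.0745). In DMSO the values were 9.07, 9.28 and 9.57 in Runx+ cells, 9.39, 8.52 and 9.20 in kdrl+ cells, and 10.42, 9.42 and 10.43 in negative cells, a difference of -1.06 ± 0.32 in kdrl+ against negative cells.

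lum and dcn stand next to each other in the RefSeq gene order of the assembly GRCz12tu, after epyc and kera, which encode proteoglycans of the same family. Their levels correlated at r = 0.884 over the 18 arrays and at 0.828 once each group mean was taken out. This is a description over arrays that share 6 groups and 1 normalization.

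Of 16 further small leucine-rich proteoglycan genes, 3 with Lycorine and 6 in DMSO had lower values in kdrl+ than in negative cells, and 0 had higher ones (limma). The background was 6.39% of all genes called lower with Lycorine and 6.02% in DMSO. With the replicate number as a block the count with Lycorine was 5. Their median difference was -0.51 with Lycorine and -0.70 in DMSO, against -0.03 with Lycorine and -0.05 in DMSO for all genes. kera, a corneal keratan sulphate proteoglycan, fell by 1.69 ± 0.34 with Lycorine (adjusted p = 0.0034) and by 2.10 ± 0.34 in DMSO (adjusted p = 0.000776). Neither kera call was lost when 1 of the arrays compared was left out. fmoda, a fibromodulin gene, fell by 1.82 ± 0.55 with Lycorine (adjusted p = 0.0368) and by 1.87 ± 0.55 in DMSO (adjusted p = 0.0378). Its Lycorine call was lost without Lycorine kdrl+ array 2 (adjusted p = 0.18) and its DMSO call without DMSO negative array 1 (adjusted p = 0.175), among other arrays. The other 4 DMSO calls in the family, aspn, ogna, fmodb and epyc, named after their values were seen, were also lost without at least 1 array.

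sparc encodes a collagen-binding glycoprotein of bone, basement membranes and remodelling tissue. With Lycorine it had 9.74, 9.79 and 9.86 in Runx+ cells, 9.15, 8.76 and 9.11 in kdrl+ cells, and 10.10, 9.87 and 9.93 in negative cells. The 3 sorts did not overlap, and the highest Runx+ array lay just under the lowest negative array. sparc fell in kdrl+ against negative cells by 0.96 ± 0.22, a factor of 1.95 (adjusted p = 0.00699, limma), and was not called without Lycorine kdrl+ array 2 (adjusted p = 0.0538). In DMSO it had 9.72, 9.69 and 10.34 in Runx+ cells, 9.55, 9.35 and 9.01 in kdrl+ cells, and 10.34, 10.15 and 10.64 in negative cells, a difference of -1.07 ± 0.22 in kdrl+ against negative cells.

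Of 24 measured genes of SPARC relatives, tenascins, periostins, thrombospondins, CCN and follistatin-like proteins, 7 were lower and 1 higher in kdrl+ than in negative cells, both with Lycorine and in DMSO (limma). The background was 6.39% of all genes lower and 6.56% higher with Lycorine, and 6.02% and 4.49% in DMSO. thbs4b, a thrombospondin of tendon and muscle attachments, fell by 1.68 ± 0.35 with Lycorine (adjusted p = 0.00403) and by 1.81 ± 0.35 in DMSO (adjusted p = 0.00285). ccn1l2, a CCN family gene, rose by 2.30 ± 0.36 with Lycorine (adjusted p = 0.000357) and by 2.42 ± 0.36 in DMSO (adjusted p = 0.000338). These calls held without each of the arrays compared. ccn2b fell by 1.57 ± 0.45 in DMSO (adjusted p = 0.0315), a call lost without DMSO negative array 3 (adjusted p = 0.163) and 3 other single arrays.

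The fibronectin paralogs fn1a and fn1b lay at opposite ends in kdrl+ cells, where fn1a had its highest and fn1b its lowest mean in both treatments. With Lycorine fn1a had 8.07, 7.59 and 7.96 in Runx+ cells, 8.85, 8.96 and 8.86 in kdrl+ cells, and 8.42, 7.72 and 8.48 in negative cells. kdrl+ arrays were above all others. fn1b had 8.96, 8.98 and 8.50 in Runx+ cells, 7.22, 7.86 and 7.58 in kdrl+ cells, and 8.84, 8.52 and 9.21 in negative cells, with every kdrl+ array below all others. fn1b fell in kdrl+ against negative cells by 1.30 ± 0.33 (adjusted p = 0.0132, limma). That call was lost without Lycorine kdrl+ array 1 (adjusted p = 0.065) or Lycorine negative array 3 (adjusted p = 0.0727). The fn1a difference of 0.68 ± 0.37 did not pass (adjusted p = 0.302), except in a fit on the 6 arrays compared alone (adjusted p = 0.0355).

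In DMSO fn1a had 7.04, 7.78 and 8.37 in Runx+ cells, 9.03, 8.43 and 9.44 in kdrl+ cells, and 8.88, 7.44 and 8.59 in negative cells. fn1b had 8.73, 9.62 and 9.91 in Runx+ cells, 7.91, 8.57 and 7.61 in kdrl+ cells, and 8.73, 9.60 and 9.01 in negative cells. Over all 18 arrays the paralogs correlated at r = -0.596, and at -0.048 once group means were taken out, so replicates of a group did not show the opposite pattern. In DMSO the kdrl+ minus negative difference was 0.66 ± 0.37 for fn1a and -1.08 ± 0.33 for fn1b.

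Of 13 genes of fibronectin receptors and partners, 3 were higher and 1 lower in Lycorine kdrl+ than in Lycorine negative cells, and 2 higher and 1 lower in DMSO (limma), or 3 higher and 2 lower in DMSO with the replicate number as a block. Without a block, the background was 6.56% of all genes higher and 6.39% lower with Lycorine, and 4.49% and 6.02% in DMSO. itga4, an integrin subunit that binds fibronectin and is carried by blood cells, rose by 2.42 ± 0.28 with Lycorine (adjusted p = 1.83e-05) and by 1.70 ± 0.28 in DMSO (adjusted p = 0.000965). itgb1b, a beta subunit shared by many integrins, rose by 1.58 ± 0.28 with Lycorine (adjusted p = 0.00139) and by 1.14 ± 0.28 in DMSO (adjusted p = 0.0158). Its DMSO call was lost without DMSO kdrl+ array 3 (adjusted p = 0.0874) or DMSO negative array 2 (adjusted p = 0.0541). fbln1, a fibulin of the matrix, fell by 2.03 ± 0.55 in DMSO (adjusted p = 0.0242), a call lost without DMSO kdrl+ array 3 (adjusted p = 0.118) or DMSO negative array 1 (adjusted p = 0.111). Markers of leukocytes moved with itga4: 6 of 7 were higher in Lycorine kdrl+ than in Lycorine negative cells and 4 of 7 in DMSO. Their part in the result was not tested.

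Among the secreted factor and enzymes, sulf2a differed most. It encodes an extracellular sulphatase that removes sulphate groups from heparan sulphate and so alters how growth factors bind it. With Lycorine it had 6.80, 6.88 and 6.76 in Runx+ cells, 5.59, 5.06 and 5.87 in kdrl+ cells, and 7.67, 7.28 and 7.77 in negative cells. The 3 sorts did not overlap in either treatment, and DMSO values were 6.47, 6.72 and 5.56 in Runx+ cells, 5.51, 5.32 and 4.86 in kdrl+ cells, and 7.88, 7.70 and 7.65 in negative cells. sulf2a fell in kdrl+ against negative cells by 2.07 ± 0.28 with Lycorine, a factor of 4.19 (adjusted p = 9.07e-05, limma), and differed by -2.52 ± 0.28 in DMSO.

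Of 21 other measured genes of heparan sulphate synthesis and modification, sulf1 had the same direction. This relative of sulf2a fell in kdrl+ against negative cells by 1.77 ± 0.27 with Lycorine (adjusted p = 0.000258) and by 1.41 ± 0.27 in DMSO (adjusted p = 0.00241, limma). hs3st1, a heparan sulphate sulphotransferase, rose by 1.57 ± 0.31 with Lycorine (adjusted p = 0.00279) and by 1.85 ± 0.31 in DMSO (adjusted p = 0.000965). In all, 1 gene of that list was higher and 2 lower with Lycorine, and 1 higher and 1 lower in DMSO. The background was 6.56% of all genes higher and 6.39% lower with Lycorine, and 4.49% and 6.02% in DMSO.

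adamts15b encodes a secreted metalloprotease whose mammalian relative cleaves matrix proteoglycans. With Lycorine it had 4.38, 3.97 and 3.85 in Runx+ cells, 3.60, 3.81 and 4.02 in kdrl+ cells, and 5.61, 4.73 and 4.88 in negative cells. It fell in kdrl+ against negative cells by 1.27 ± 0.25 (adjusted p = 0.00305, limma). In DMSO it had 4.01, 4.66 and 4.67 in Runx+ cells, 3.77, 3.98 and 3.63 in kdrl+ cells, and 5.63, 5.58 and 5.94 in negative cells. Negative arrays stood above every Runx+ and kdrl+ array in both treatments. Its paralog adamts15a, among 9 measured genes of that family, fell in kdrl+ against negative cells by 0.96 ± 0.29 with Lycorine (adjusted p = 0.0387) and by 1.35 ± 0.29 in DMSO (adjusted p = 0.00629). Its Lycorine call was lost without Lycorine negative array 1 (adjusted p = 0.193) and 4 other single arrays.

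angptl2a encodes a secreted angiopoietin-like protein. With Lycorine it had 4.78, 4.37 and 4.79 in Runx+ cells, 4.65, 3.91 and 4.26 in kdrl+ cells, and 6.35, 4.97 and 5.86 in negative cells. It fell in kdrl+ against negative cells by 1.46 ± 0.35 (adjusted p = 0.00972, limma), a call lost without Lycorine negative array 1 (adjusted p = 0.0654) or Lycorine kdrl+ array 2 (adjusted p = 0.0651). In DMSO it had 4.29, 5.004 and 4.95 in Runx+ cells, 4.66, 4.78 and 4.36 in kdrl+ cells, and 6.76, 5.70 and 6.82 in negative cells. As for adamts15b, negative arrays stood above all others in both treatments. Both genes were dim, with 18-array means at percentile 31.1 of all genes for angptl2a and 20.5 for adamts15b. The dim-gene filter left both out. Of the 7 other measured angiopoietin-like genes, 1 was called in DMSO: angptl5 fell in kdrl+ against negative cells by 1.61 ± 0.41 (adjusted p = 0.0165), a call lost without DMSO negative array 3 (adjusted p = 0.0908) and 2 other single arrays. The background in DMSO was 6.02% of all genes called lower and 4.49% higher. angptl2b, the paralog of angptl2a, named after its value was seen, was not called. It differed by -0.27 ± 0.41 with Lycorine (adjusted p = 0.825) and by -1.04 ± 0.41 in DMSO (adjusted p = 0.121, limma).

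**Figure D3:**
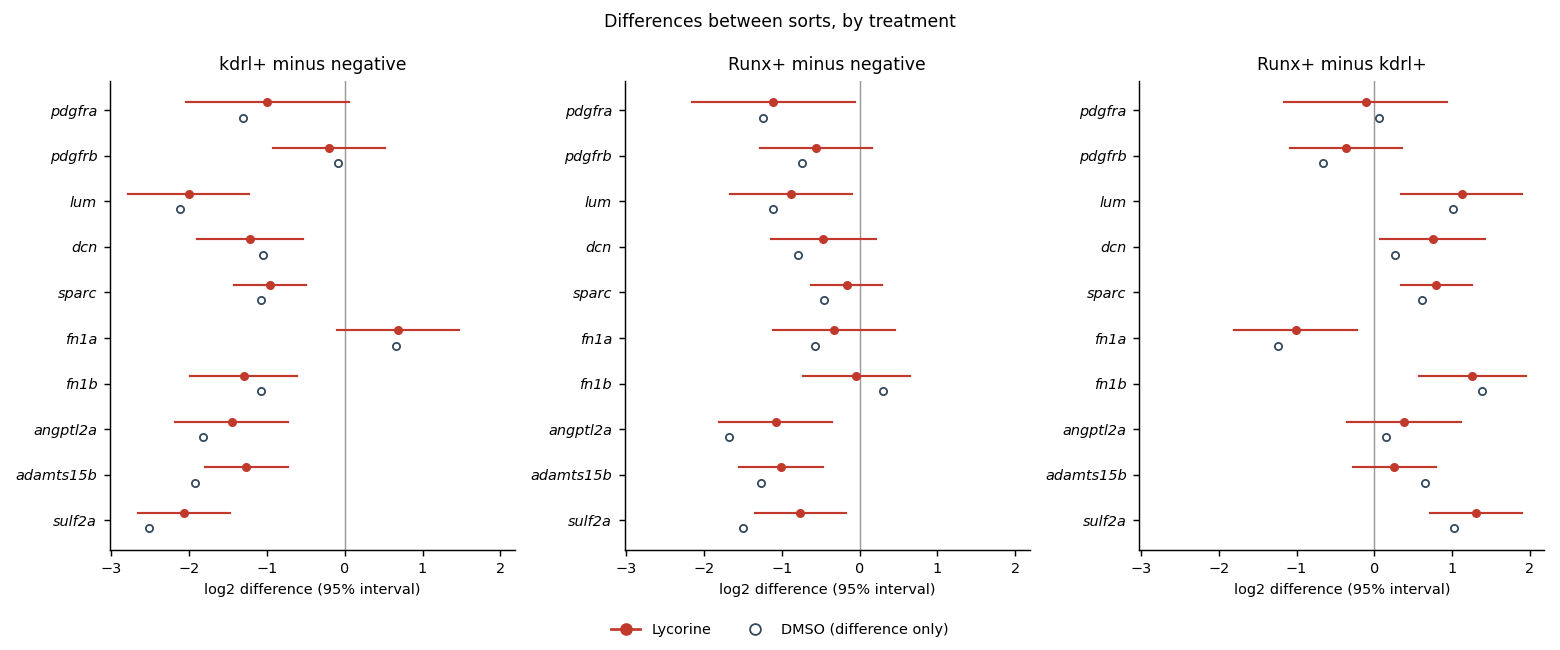
Log2 difference of each member (horizontal axes) between sorts, Lycorine in red with 95% intervals from limma above DMSO as open dark blue points, which are a description and carry no interval. At left 7 members lie below 0 with their intervals (kdrl+ minus negative, Lycorine), and fn1a at 0.68 lies on the other side.

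Between Runx+ and negative cells with Lycorine, 0 of the 10 members passed the test (limma, each adjusted p at 1), and 5 had an unadjusted p under 0.05. The background was 0.0104% of all genes, that is 2 genes, and 666 genes had an unadjusted p under 0.05. All 10 differences lay between -1.11 and -0.04, with a median of -0.66 against 0.01 for all genes. The lowest were pdgfra at -1.11 ± 0.50, angptl2a at -1.08 ± 0.35 and adamts15b at -1.01 ± 0.25. Arrays did not overlap for 4 members, against 13.4% of all genes. With array weights angptl2a and adamts15b passed (adjusted p = 0.0291 each). That fit also called many more of all genes in this comparison, as counted in the closing section. In DMSO the member differences between Runx+ and negative cells ran from -1.67 (angptl2a) to 0.31 (fn1b), 3 members did not overlap against 10.9% of all genes, and 0.0052% of all genes, 1 gene, were called.

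Runx+ cells were higher than kdrl+ cells with Lycorine for 3 of 10 members. sulf2a rose by 1.31 ± 0.28 (adjusted p = 0.00534), fn1b by 1.26 ± 0.33 (adjusted p = 0.0179) and sparc by 0.80 ± 0.22 (adjusted p = 0.0234, all limma). The background was 5.64% of genes called higher and 7.12% called lower, and the arrays of 6 members did not overlap against 40.3% of all genes. Markers of other cell types were called higher there too (limma). Of muscle these were ckma, desma, myhz1.1, mylpfa and tnnt3a. Of epidermis they were cdh1, cldnb, krt4, krt5 and tp63, and of neurons elavl4, snap25a, stmn1b and syt1a. The leukocyte markers coro1a, lcp1, lyz, mpx, ptprc and spi1b were called lower. So were the blood stem and progenitor markers lmo2 (-3.35), myb (-1.35) and runx1 (-0.74), and the erythroid marker hbbe2 (-1.28). The progenitor marker itga2b was higher in Runx+ cells, by 0.41, and was not called. Other markers of these lists did not pass. The part of these cell types in the members' differences was not tested. lum differed by 1.12 ± 0.37 (adjusted p = 0.0544), dcn by 0.75 ± 0.32 (adjusted p = 0.14) and fn1a by -1.01 ± 0.37 (adjusted p = 0.0846), and these 3 did not pass. Without Lycorine Runx+ array 1 or 2 the count fell to 1, and it was between 3 and 6 in the other fits on all 6 arrays: with the fit limited to the 6 arrays compared lum, dcn and fn1a also passed. The sparc call was lost without Lycorine Runx+ array 1, 2 or 3 or Lycorine kdrl+ array 2 (adjusted p = 0.132 for the last), and the fn1b call without Lycorine Runx+ array 1 or 2 or Lycorine kdrl+ array 1 (adjusted p = 0.0796 for the last). In DMSO, Runx+ minus kdrl+ differences ran from -1.24 (fn1a) to 1.39 (fn1b), and 6 members did not overlap against 16.3% of all genes.

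Pathway genes called between Runx+ and kdrl+ cells in DMSO (background 4.33% higher and 4.1% lower, limma) included both B and D type ligands. pdgfbb was lower in Runx+ cells by 2.50 ± 0.32 (adjusted p = 8.16e-05, limma), averaging 5.60 in Runx+ and 8.10 in kdrl+ cells, and pdgfd by 1.05 ± 0.20 (adjusted p = 0.00366). itga4 was lower by 1.93 ± 0.28 (adjusted p = 0.000393) and ccn1l2 by 1.84 ± 0.36 (adjusted p = 0.00383). kera was higher by 1.54 ± 0.34 (adjusted p = 0.0093). These 5 calls held without each of the arrays compared. With only the groups compared in the fit, far fewer of all genes were called in this comparison. No gene of the 10 pathway lists was called between Runx+ and negative cells in DMSO by limma, although 11 of 23 mesenchyme transcription factors had an unadjusted p under 0.05 there, as did 2415 of all 19247 genes.

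The 6 members lum, dcn, sparc, angptl2a, adamts15b and sulf2a had means in the order kdrl+ below Runx+ below negative in both treatments. The cartilage markers acana, cnmd, col2a1a, hapln1a and sox9a had the same order in both treatments, but matn1 and col9a1b did not. So did the neural markers elavl3, elavl4, snap25a, stmn1b and syt1a, but not neurod1. The share of all genes with that order was not counted. For the members, not every step of that order exceeded the spread: Runx+ and kdrl+ arrays overlapped for angptl2a in both treatments, for adamts15b with Lycorine and for dcn in DMSO. Runx+ and negative arrays overlapped for lum and dcn in both treatments and for sparc in DMSO. The 15 pairs among these 6 genes correlated at r = 0.654 to 0.916 over the 18 arrays. With the mean of the other 9 members, angptl2a correlated at 0.953, lum at 0.921 and adamts15b at 0.92, whereas pdgfrb stood at 0.366 and fn1a at -0.144. All of these arrays share 6 groups and a common normalization, and the r values are descriptions.

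The genes outside the set whose levels followed the members' mean most closely over the 18 arrays were col6a3 (r = 0.972), a collagen VI chain, sema3d (0.964), a secreted guidance factor, thbs4b (0.961), comp (0.957), a matrix protein of cartilage and tendon, and mmp2 (0.957), a matrix metalloprotease. col6a3 averaged 6.02 ± 0.06 in kdrl+ and 7.69 ± 0.74 in negative cells with Lycorine, and 6.29 ± 0.15 in kdrl+ and 8.10 ± 0.64 in negative cells in DMSO (SD, n = 3 each). They were picked for their likeness to the members.

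Some markers of other cell types were also lower in kdrl+ than in negative cells. Of 6 neural markers, 5 were called lower in either treatment (limma), among them stmn1b, a gene of neurons, at -2.36 ± 0.55 with Lycorine (adjusted p = 0.00834) and -3.07 ± 0.55 in DMSO (adjusted p = 0.00161). Neural markers scored -0.68, -1.15 and -0.05 on Lycorine kdrl+ and 0.96, 1.01 and 1.16 on Lycorine negative arrays, as mean log2 differences from each gene's mean. With Lycorine 2 of 7 epidermal markers (krt5 and tp63), 2 of 5 erythroid markers (hbae3 and hbbe2) and 1 of 7 muscle markers were called lower too. In DMSO the counts in these lists were 1 (cdh1), 0 and 0. Directions were not uniform. Among erythroid markers gata1a was higher in kdrl+ cells, by 0.52 with Lycorine and 0.92 in DMSO, as was slc4a1a in DMSO (0.26). The muscle marker myhz1.1 was higher by 0.29 with Lycorine and 0.33 in DMSO, while the other muscle markers were lower. None of these rises was called. Single markers were named after their values were seen, and the part of these cell types in the members' differences was not tested. Of 23 measured mesenchyme transcription factors, 5 were lower and 1 higher in Lycorine kdrl+ than in Lycorine negative cells (limma). For these and the marker counts above, the background was 6.39% lower and 6.56% higher with Lycorine, and 6.02% and 4.49% in DMSO. twist2, which marks dermal and fin mesenchyme, fell by 2.16 ± 0.57 (adjusted p = 0.0175) and foxf2b, a forkhead gene, rose by 1.82 ± 0.48 (adjusted p = 0.0179). In DMSO twist2 alone was lower (by 2.08 ± 0.57, adjusted p = 0.0259) and 2 were higher, foxf2b by 1.58 ± 0.48 (adjusted p = 0.0442) and tcf15 by 1.09 ± 0.33 (adjusted p = 0.0455). With the replicate number as a block 4 were lower and 2 higher in DMSO. Each of these calls was lost without at least 1 array, with adjusted p up to 0.106 for twist2 and 0.1 for foxf2b with Lycorine, and up to 0.132 for twist2, 0.184 for foxf2b and 0.199 for tcf15 in DMSO.

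Of 12 pericyte and smooth muscle genes, 1 was higher and 1 lower in Lycorine kdrl+ than in Lycorine negative cells, and 2 higher and 0 lower in DMSO (limma). The background was 6.56% of all genes higher and 6.39% lower with Lycorine, and 4.49% and 6.02% in DMSO. rgs5b, a pericyte gene in mammals, rose by 3.16 ± 0.35 with Lycorine (adjusted p = 1.05e-05) and by 1.63 ± 0.35 in DMSO (adjusted p = 0.0065). cspg4, a proteoglycan of mural and other mesenchymal cells named after its value was seen, fell by 2.15 ± 0.52 with Lycorine (adjusted p = 0.0111, and 0.0555 without Lycorine negative array 1). mylka, a myosin light chain kinase, rose by 0.97 ± 0.29 in DMSO (adjusted p = 0.0448, lost without DMSO negative array 2 at 0.187 and 4 other arrays). The median difference of the mural list was -0.05 with Lycorine and 0.05 in DMSO. Among 18 elastic and hyaluronan matrix genes, vcanb, a versican gene, fell by 1.47 ± 0.32 with Lycorine (adjusted p = 0.00497) and by 1.39 ± 0.32 in DMSO (adjusted p = 0.00902, and 0.0517 without DMSO negative array 1). Of 7 cartilage markers, 4 with Lycorine and 2 in DMSO had lower values in kdrl+ than in negative cells, and 0 higher.

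The negative arrays numbered 2 had low values for the members. With Lycorine that array was the lowest of the 3 for 10 of 10 members, against 47.9% of all genes, and in DMSO for 8 of 10, against 48.2%. The gap to the mean of the other 2 arrays was widest for pdgfra, at 1.41 with Lycorine and 1.77 in DMSO. Mean scores of list genes, as log2 differences from each gene's mean, moved along. Mesenchyme transcription factors scored 0.86, -0.15 and 0.42 on Lycorine negative arrays 1 to 3, and 0.98, -0.52 and 0.59 on DMSO negative arrays. Cartilage markers scored 0.97, 0.02 and 0.95 with Lycorine and 1.62, -0.03 and 1.24 in DMSO. Liver, pancreas and gut markers scored -0.75, -0.31 and -0.88 with Lycorine but -0.71, 2.68 and 0.06 in DMSO, and all 3 DMSO arrays numbered 2 scored at least 1.89. Their part in the members' values was not tested.

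**Figure D4:**
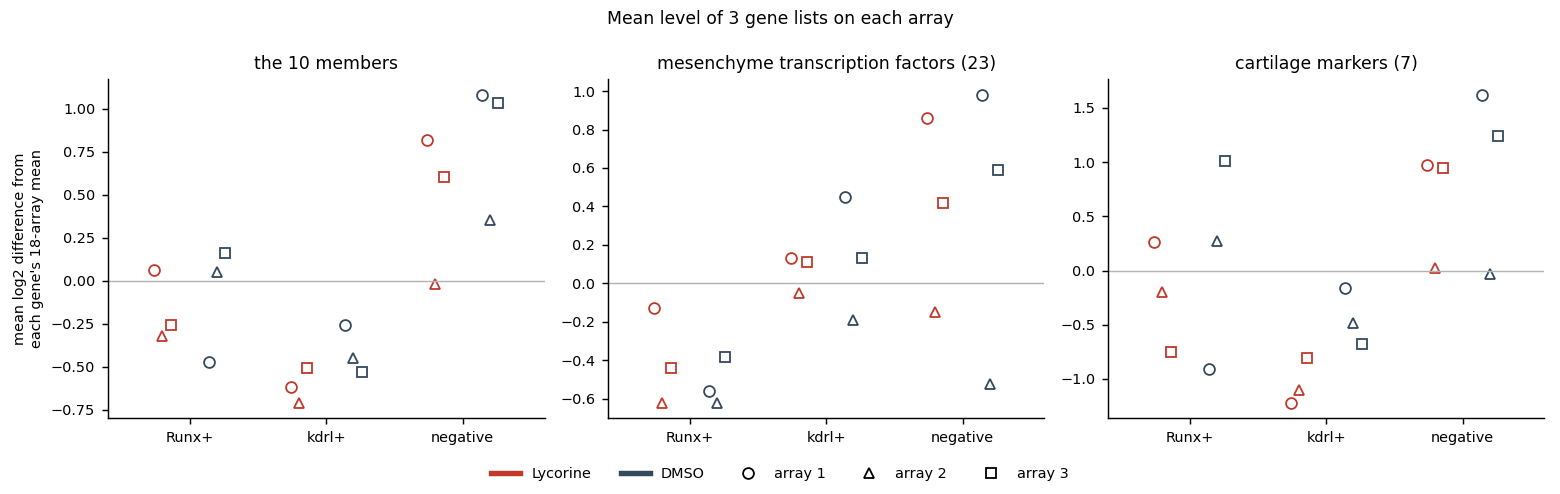
Mean log2 difference from each gene's 18-array mean (vertical axes) of the members, the mesenchyme transcription factors and the cartilage markers on each array, by sort, Lycorine in red to the left of DMSO in dark blue, marker shapes for array numbers. In negative cells the triangle (array 2) lies lowest in all 3 panels, at -0.02 with Lycorine and 0.35 in DMSO for the members.

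Lycorine against DMSO, the treatment the study tested, gave no call among the members in any sort. In Runx+ cells 0 of 10 passed the test, with 0 at an unadjusted p under 0.05, against a background of 0% called and 2600 genes at an unadjusted p under 0.05 (limma). In kdrl+ cells 0 of 10 passed, with dcn alone at an unadjusted p under 0.05, against 0.052% called, 10 genes, and 2192 genes at an unadjusted p under 0.05. In negative cells 0 of 10 passed, with adamts15b alone at an unadjusted p under 0.05, against 0% called and 1302 genes at an unadjusted p under 0.05. The counts over all genes turned on single arrays: without DMSO Runx+ array 1 the Runx+ count was 1107 genes, and without DMSO kdrl+ array 3 the kdrl+ count was 424, while the members called stayed at 0. These results were also known when the members were named.

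The members' median Lycorine minus DMSO difference was -0.11 in Runx+, -0.19 in kdrl+ and -0.30 in negative cells, against -0.04, -0.06 and -0.08 for all genes. dcn in kdrl+ cells had 8.28, 8.23 and 8.43 with Lycorine and 9.39, 8.52 and 9.20 in DMSO, a difference of -0.72 ± 0.32 (adjusted p = 0.412, limma) whose arrays did not overlap. sulf2a in Runx+ cells, with 6.80, 6.88 and 6.76 against 6.47, 6.72 and 5.56 in DMSO, differed by 0.56 ± 0.28 (adjusted p = 0.394), and sparc in negative cells, with 10.10, 9.87 and 9.93 against 10.34, 10.15 and 10.64 in DMSO, by -0.41 ± 0.22 (adjusted p = 0.754). Non-overlap of this kind occurred for 15.3% of all genes in Runx+, 15.9% in kdrl+ and 16.9% in negative cells, and for 1 of the 10 members in each sort.

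In negative cells all 10 differences lay below 0, between -0.70 and -0.08. With 1 array left out, those of pdgfra, pdgfrb, lum and fn1a rose above 0 in some fits, to 0.16, 0.21, 0.025 and 0.19. Taken as same-numbered pairs, pdgfra, lum, dcn, sparc, angptl2a and adamts15b were lower with Lycorine in all 3 pairs, and 0 members were higher in all 3. Some of these pair differences were close to 0, at -0.013 for adamts15b in pair 1 and -0.064 for pdgfra in pair 2. Shares of all genes below 0, or lower in all 3 pairs, were not counted. The pair differences of angptl2a were -0.41, -0.73 and -0.95, and those of dcn -0.28, -0.44 and -0.96. With the replicate number as a block no member passed either, the lowest adjusted p being 0.579 for adamts15b. In the unpaired fit angptl2a differed by -0.70 ± 0.35 (adjusted p = 0.742) and adamts15b by -0.64 ± 0.25 (adjusted p = 0.689, limma). For pdgfra in negative cells the 95% interval ran from -1.35 to 0.74, and for sparc in Runx+ cells, the member with the smallest SE, from -0.58 to 0.34. No gene of the pathway lists was called for Lycorine in any sort. The lowest adjusted p among them was 0.148, for elnb, an elastin gene, at -1.45 ± 0.33 in kdrl+ cells, named after its value was seen.

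**Figure D5:**
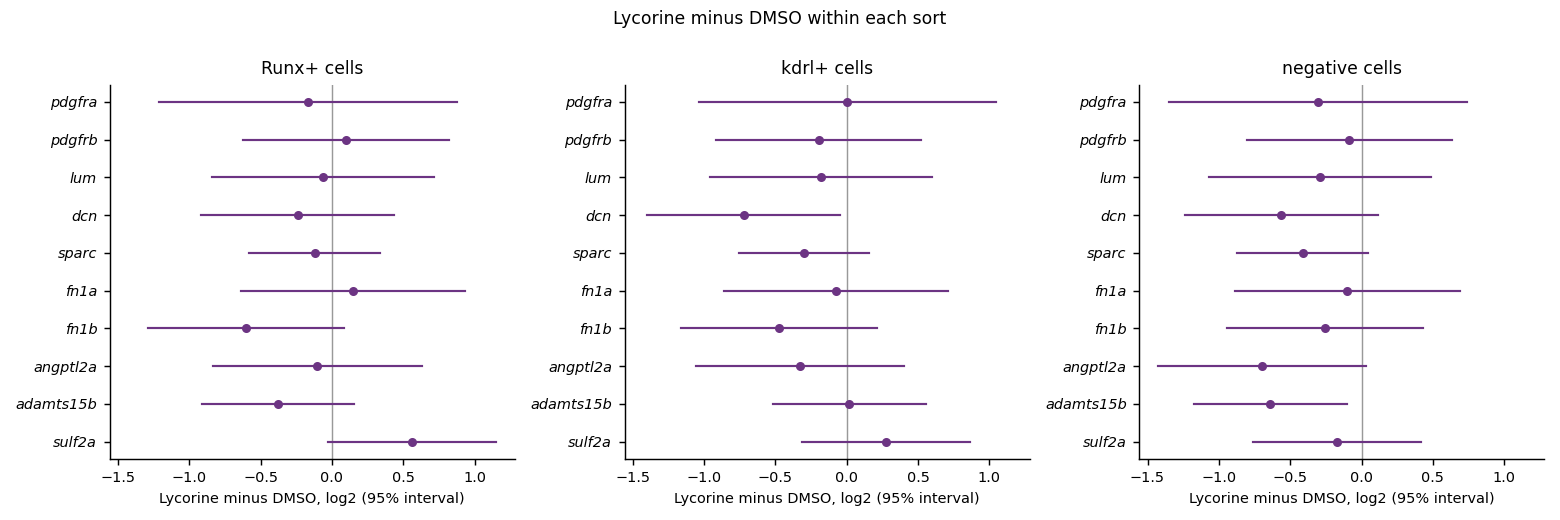
Lycorine minus DMSO log2 difference of each member (horizontal axes, 95% intervals from limma) in Runx+, kdrl+ and negative cells. All 10 points lie below 0 in negative cells, and no member passed the adjusted test in any panel. The share of all genes below 0 was not counted.

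Differences of the Lycorine effect between sorts were tested as interaction terms. For kdrl+ minus negative cells they ran from -0.22 to 0.66 over the members, for Runx+ minus negative from -0.35 to 0.74, and for Runx+ minus kdrl+ from -0.40 to 0.48. In each of the 3 comparisons 0 of 10 members passed (limma), 0 had an unadjusted p under 0.05, and 0% of all genes were called, while 512, 321 and 852 genes had an unadjusted p under 0.05. The largest member value was that of sulf2a for Runx+ minus negative cells, 0.74 ± 0.40 (adjusted p = 1, limma; 95% interval -0.10 to 1.57). At a median SE of 0.38 for such differences, 3 arrays per group could not show small ones.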

How the data were processed

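Arrays of 3 sorts and 2 treatments were used, 3 for each of the 6 groups, grouped by the labels. The deposited log2 values were made by the authors; per the submitters' processing notes, the tools were oligo, RMA and limma (no version is given there). RMA corrects background, quantile-normalizes and summarises probes, which can compress low values. Of 65528 probe rows, 20806 carried 1 gene symbol, 855 several and 43867 none; rows with several or none were left out. Names were updated through RefSeq (GRCz12tu): 20323 rows by Entrez identifier, 72 by symbol and 43 by synonym, while 368 kept the array's name. The row with the highest mean was kept for 1372 genes with several rows, which left 19247 genes. No dim gene was left out.

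All 18 arrays entered a model with 1 mean per group, fitted with limma 3.58.1 in R 4.3.3 (lmFit, contrasts, eBayes, 2-sided), and p-values were adjusted by Benjamini-Hochberg over all genes of a contrast, threshold 0.05. Every adjusted p is from limma. Intervals are at 95%. The fit was tested on simulated data. The number of arrays limits precision: the median SE was 0.27 for direct contrasts. The variance of a gene was pooled over groups of unequal spread, with a root mean square SD of 0.26 to 0.33 in Lycorine groups and 0.44 to 0.54 in DMSO groups. SEs may therefore be too small for DMSO comparisons and too large for Lycorine ones. With only the groups compared, fewer genes were called between kdrl+ cells and the other sorts in DMSO. Tables were made in Python 3.11.15 with pandas 2.3.3 and numpy 2.4.6, and figures with matplotlib 3.10.9. Alternatives were the arrays in the fit, a replicate block (fixed, or random within treatment), array weights, median centring, cyclic loess, the mean of rows, a dim-gene filter, a trended robust prior and each array left out; 2 more, without the negative arrays numbered 2 and without the DMSO arrays numbered 2, were chosen after seeing the data.

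The members, the gene lists and the tests were chosen with earlier results of these data known. From each pathway list, up to 2 called genes of largest difference in each direction were named per Lycorine contrast and DMSO sort contrast; all 10 members were named. The labels do not say what a replicate number shares. Deviations from the group means of same-numbered arrays correlated above 0.1 in every pair for kdrl+ and negative cells with Lycorine (0.236, 0.219 and 0.425) and in DMSO (0.258, 0.393 and 0.116), for Runx+ and kdrl+ cells in DMSO (0.42, 0.326 and 0.364), and for Lycorine and DMSO negative cells (0.285, 0.306 and 0.153). Numbers were taken to pair these 4 comparisons. In the other comparisons between sorts of a treatment or between treatments of a sort at least 1 pair lay under 0.1.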

Additional observations from a re-analysis of the deposited data

How the results depend on the processing

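In all, 1442 member values were recomputed over 29 alternatives. Of these, 1366 kept their direction and, where a test was made, their side of the threshold. Differences between DMSO sorts are among them and had no test. Of the rest, 16 gained a call, 16 lost one, 3 DMSO values moved by more than 1 SD and 41 changed sign. None of the 41 passed the test before or after (36 for Lycorine against DMSO, 5 between sorts). The cause of these changes was not tested.

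The count of members called in kdrl+ against negative cells with Lycorine was 7. It lay between 4 (without Lycorine kdrl+ array 2) and 7 with 1 array left out, and was 8 with array weights (pdgfra gained), with only the groups compared (fn1a gained) and without both negative arrays numbered 2 (pdgfra gained), and 5 with the dim-gene filter. The replicate block left it at 7, so pairing changed no member call there, and it ended no call of a pathway gene in the comparisons taken as paired. In Runx+ against kdrl+ cells with Lycorine the count was 3, and it was 6 with only the groups compared, 5 with the replicate block, 6 with array weights, 4 with the replicate block within treatment, cyclic loess or the dim-gene filter (lum gained), and 1 to 3 with 1 array left out. In Runx+ against negative cells with Lycorine it was 0, and 2 with array weights. For Lycorine against DMSO and for differences of effects it stayed at 0 in every alternative.

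Most sign changes were of Lycorine minus DMSO differences. In kdrl+ cells pdgfra was -0.056 with array weights, -0.087 with cyclic loess and -0.34 without the 3 DMSO arrays numbered 2, where pdgfrb was 0.11. In Runx+ cells pdgfra was 0.12 with the mean of rows, pdgfrb -0.070 and lum 0.085 with array weights, and angptl2a 0.026 without the 3 DMSO arrays numbered 2. In negative cells fn1b was 0.15 without both negative arrays numbered 2. With array weights, fn1b was 0.029 for Runx+ minus negative and pdgfra 0.13 for Runx+ minus kdrl+ cells with Lycorine. With 1 array left out, Lycorine minus DMSO ranges in Runx+ cells were -0.54 to 0.12 (pdgfra), -0.052 to 0.37 (pdgfrb), -0.27 to 0.27 (lum), -0.23 to 0.093 (sparc), -0.20 to 0.47 (fn1a) and -0.33 to 0.037 (angptl2a). In kdrl+ cells they were -0.34 to 0.24 (pdgfra), -0.39 to 0.11 (pdgfrb), -0.40 to 0.051 (lum), -0.35 to 0.16 (fn1a) and -0.085 to 0.12 (adamts15b). In negative cells they were -0.89 to 0.16 (pdgfra), -0.42 to 0.21 (pdgfrb), -0.63 to 0.025 (lum) and -0.53 to 0.19 (fn1a). With Lycorine, fn1b ran from -0.21 to 0.14 for Runx+ minus negative cells and pdgfra from -0.44 to 0.12 for Runx+ minus kdrl+ cells. Without the 3 DMSO arrays numbered 2, pdgfrb in DMSO was -0.72 for kdrl+ minus negative and -1.35 for Runx+ minus negative cells, and angptl2a -2.17 for the last.

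Over all genes, kdrl+ against negative cells with Lycorine gave 2492 calls, from 1145 (without Lycorine kdrl+ array 2) to 5880 (array weights), and the same sorts in DMSO 2023, or 730 with only the groups compared. Runx+ against kdrl+ cells gave 2455 calls with Lycorine, from 1012 (without Lycorine kdrl+ array 2) to 6194 (array weights), and 1623 in DMSO, or 172 with only the groups compared. Runx+ against negative cells gave 2 calls with Lycorine and 257 with array weights, and 1 in DMSO, 343 with array weights and 568 without DMSO Runx+ array 1. Lycorine against DMSO gave 0 calls in Runx+ cells, 952 with array weights and 1107 without DMSO Runx+ array 1, and 10 in kdrl+ cells, 424 without DMSO kdrl+ array 3. Median centring moved kdrl+ minus negative differences by 0.134 in DMSO and turned the split of 865 higher and 1158 lower to 1210 and 875. The dim-gene filter left out angptl2a and adamts15b, so it gave no value for them.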
